A study of Camelus dromedarius with 10 samples.

Results

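Toll-like receptors (TLRs) were followed in the supraoptic nucleus (SON) of the dromedary camel, and their transcript levels were compared between control camels and camels deprived of water (WD). The family was taken as the 10 symbols TLR1 to TLR10, and a member was any Ensembl gene ID that the study's supplementary tables pair with one of these symbols, by the camel gene name or else by the name of the human ortholog. By this rule 9 of the 10 symbols had an ID, out of 22444 IDs in the count table. TLR2 was not paired with an ID and was not analysed here. TLR9 was paired through its human ortholog, and the other 8 by the camel name.

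The study compared 5 control camels, which had food and water freely, with 5 WD camels, which had food but no water for 20 days. All were male animals of 1 narrow age range, housed on a ranch in the hot season. Punches of the rostral SON were taken from 1 side of each brain, and total RNA was sequenced after depletion of ribosomal RNA with a stranded kit. Libraries are named here by group and by the number in their label (CON2, CON3, CON4, CON5 and CON13; WD6, WD7, WD8, WD9 and WD15).

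Toll-like receptors are innate immune sensors that recognise conserved molecules of microbes and, for some members, molecules released by damaged cells. TLR1, TLR2, TLR4, TLR5, TLR6 and TLR10 act mainly at the cell surface, where TLR4 with its partners binds lipopolysaccharide, TLR5 binds flagellin, and TLR1 and TLR6 pair with TLR2 to bind lipopeptides. TLR3, TLR7, TLR8 and TLR9 sense nucleic acids inside endosomes. Most members signal through the adaptor MYD88 and the IRAK kinases to NF-κB and interferon regulatory factors, and in the brain microglia and other macrophages are their best known source. In a punch of whole tissue, fewer cells of a type and less RNA per cell cannot be told apart.

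Depth set the limits of these measurements. Libraries held between 1665098 and 8126641 counts, of which 5 gene IDs took from 27.7% to 76.1%. The remaining depth was lowest in CON13 and WD6, where 1 count was worth 1.20 and 0.475 CPM (counts scaled to library size, after TMM normalization). In the other 8 libraries 1 count was worth at most 0.237 CPM. WD15 lay within the depth of the other 8 but had the lowest RNA integrity of the 10 libraries, and WD15 and CON13 had the shorter fragments. Transcripts of OTP and SIM1, which mark magnocellular neurones, were found in every library.

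Over the 10 libraries the members gathered 1177 counts for TLR4, 731 for TLR1, 673 for TLR7, 575 for TLR3, 527 for TLR6, 436 for TLR10, 336 for TLR8, 313 for TLR5 and 51 for TLR9. Transcript lengths were not available here, so levels were not compared between members. TLR9 was near 0 throughout, with 3 to 8 counts in each library. CON13 held 1 count of TLR3, 2 counts of TLR7 and none of TLR10, which allows a TLR10 level of up to 3.59 CPM there.

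In the RefSeq gene models of another camel assembly, TLR6, TLR1 and TLR10 lie side by side, as do TLR7 and TLR8. The models of TLR1 and TLR10 overlap, as do those of TLR7 and TLR8, and TLR5 overlaps a gene without a name. The strand setting of the counting is not given in the sources used here, so reads shared within these pairs are uncertain. No other ID had counts within 1% of those of a member in every library.

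No TLR passed the threshold in WD against control. With edgeR's quasi-likelihood F test and Benjamini-Hochberg adjustment over the 14432 genes tested, 0 of the 8 tested members had an adjusted p of at most 0.05, beside 72 of all genes tested (0.499%, with 0.270% called and higher in WD). At an unadjusted p under 0.05 there were 4 members, TLR4, TLR6, TLR7 and TLR10, all with the higher mean in WD, where 9.31% of all genes tested were past this level and 4.91% were past it and higher in WD. DESeq2's Wald test, the test of the study, also called none of the members, beside 1.27% of the genes to which it gave an adjusted p, and 3 members had an unadjusted p under 0.05. All 8 log2 fold changes (LFC) were above 0, and their median was 0.72, where the median of all genes tested was 0.017 and 51.9% of genes were above 0. The members come from the same 10 libraries and are not independent of each other. Control and WD libraries overlapped for all 9 members, where 2.62% of all genes tested had groups that did not overlap.

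**Figure D1:**
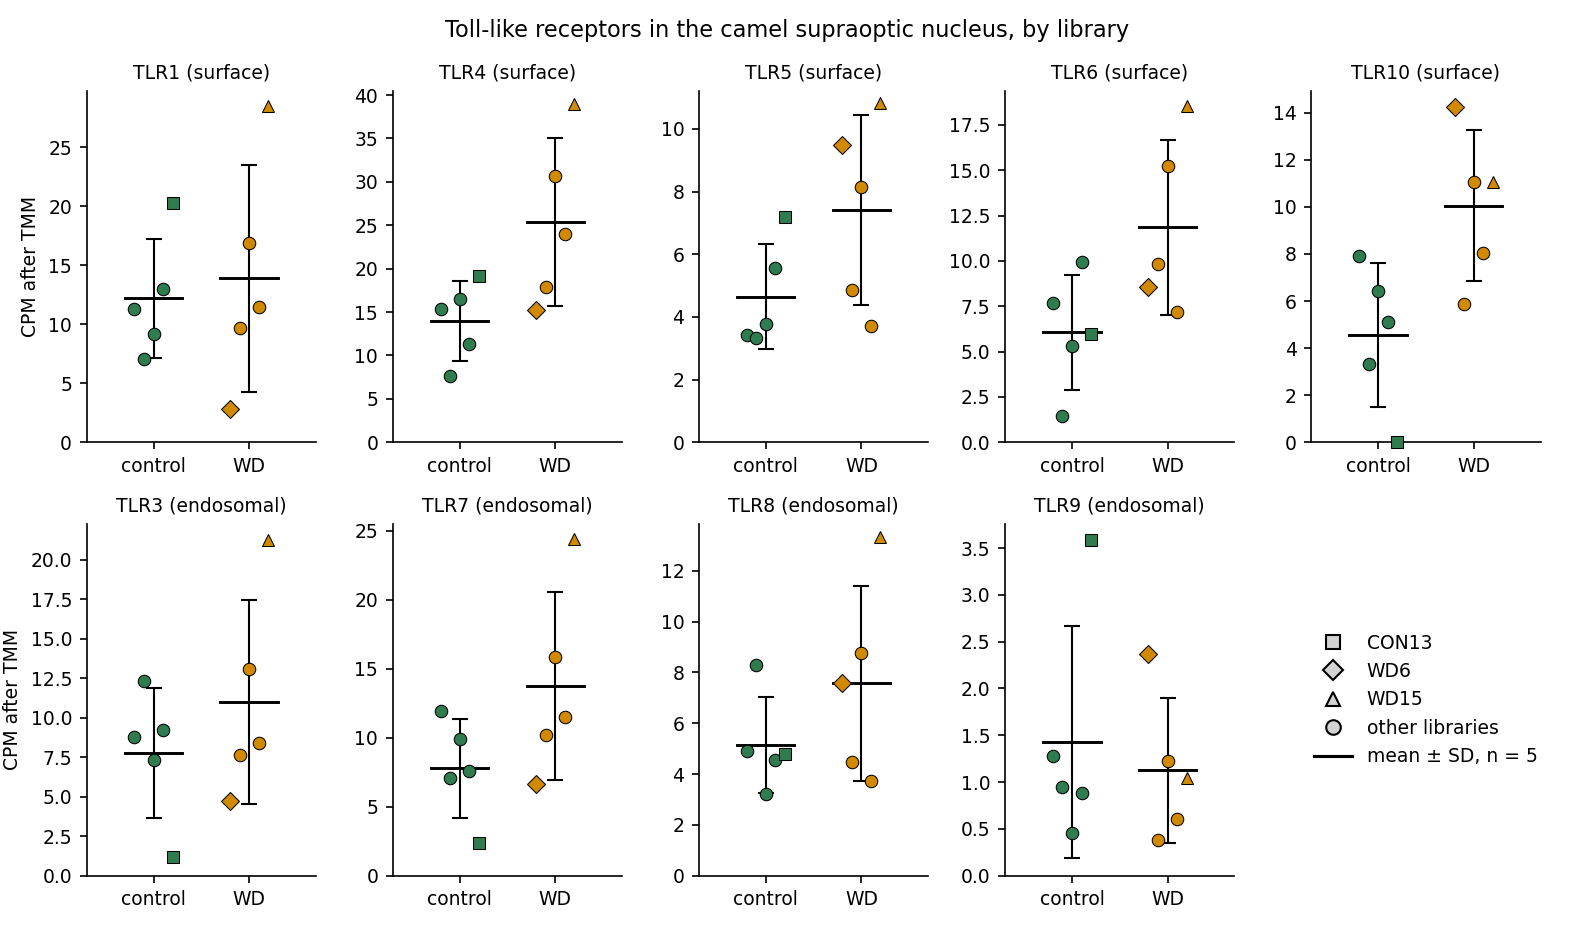
Level of each of the 9 Toll-like receptors in each library, in CPM after TMM normalization on linear axes that start at 0 and differ between panels; points are libraries, and bars are the mean ± SD of 5 control and 5 WD libraries. WD15 is the highest point for TLR1, TLR3, TLR4, TLR5, TLR6, TLR7 and TLR8, and both groups overlap in every panel.

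Among the surface receptors, TLR4 (ENSCDRG00005012955), the receptor for lipopolysaccharide, had the smallest p. Its levels in the control libraries CON2, CON3, CON4, CON5 and CON13 were 15.4, 7.57, 16.5, 11.3 and 19.1 CPM. In WD6, WD7, WD8, WD9 and WD15 they were 15.2, 17.9, 30.7, 23.9 and 39.0 CPM. WD8, WD9 and WD15 lay above every control library, while WD6 and WD7 lay within the control range. The mean was 25.3 ± 9.69 CPM in WD and 14.0 ± 4.56 CPM in control (SD, n = 5 each), an LFC of 0.92 (SE 0.283, 95% interval 0.32 to 1.51, edgeR adjusted p = 0.229). The edgeR adjusted p was 0.0886 without WD6 and 0.633 without WD15, the extremes over the fits that left out a library. TLR4 was among the genes that the study picked from these samples for having an adjusted p above the threshold, so the missing call is not independent evidence. The study measured the picked genes, IRF8 among them, by qRT-PCR and reported that its threshold missed some changed genes.

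CD14, which hands lipopolysaccharide to TLR4, was paired only in a table that is held here for genes with a small p. Its values are therefore selected on this outcome, and it is not counted in the lists below. Its levels were 8.11, 4.02, 5.51, 4.39 and 13.2 CPM in the control libraries and 15.7, 5.10, 12.1, 9.94 and 29.8 CPM in the WD libraries, in the order above. The highest library was again WD15, and the LFC was 1.20 (SE 0.418, edgeR adjusted p = 0.329). Without WD15 it was 0.73.

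TLR6 (ENSCDRG00005010208), a partner of TLR2 for lipopeptides, had the largest LFC of the members. Control levels were 7.68, 1.42, 5.28, 9.95 and 5.98 CPM, and WD levels 8.54, 9.82, 15.2, 7.17 and 18.5 CPM. CON3 stood low with 6 counts, and WD8 and WD15 lay above every control library. The LFC was 0.95 (SE 0.390, 95% interval 0.13 to 1.77, edgeR adjusted p = 0.458), and 0.67 without CON3.

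TLR10 (ENSCDRG00005010269), whose ligand is less well established, was the member with the most WD libraries above every control. Control levels were 7.90, 3.31, 6.43, 5.12 and 0 CPM, and WD levels 14.2, 5.87, 11.1, 8.04 and 11.0 CPM. WD6, WD8, WD9 and WD15 were above all controls and WD7 was inside their range. The LFC was 0.92 (SE 0.383, 95% interval 0.11 to 1.72, edgeR adjusted p = 0.468), and 0.77 without CON13, the library in which TLR10 was not found. TLR10 was the only tested member that was not highest in WD15. It was highest in WD6, where the value stands on 30 counts.

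TLR5 (ENSCDRG00005018968), the flagellin receptor, had levels of 3.42, 3.31, 3.79, 5.56 and 7.17 CPM in control and 9.49, 4.85, 8.14, 3.72 and 10.8 CPM in WD. WD6, WD8 and WD15 were above the control libraries, whereas WD9 was below the control mean of 4.65 CPM. The LFC was 0.73 (SE 0.369, 95% interval -0.049 to 1.50, edgeR adjusted p = 0.580).

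TLR1 (ENSCDRG00005010240) had the smallest LFC. It ranged from 7.10 to 20.3 CPM in control, with a median of 11.3 CPM, and from 2.85 to 28.5 CPM in WD, with a median of 11.5 CPM. Only WD15 lay above the controls, and WD6, on 6 counts, was the lowest of all 10 libraries. The LFC was 0.33 (SE 0.397, 95% interval -0.51 to 1.16, edgeR adjusted p = 0.862). It turned to -0.077 without WD15.

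Of the endosomal receptors, TLR7 (ENSCDRG00005010320), a sensor of single-stranded RNA, had the largest LFC. Control levels were 11.95, 7.10, 9.87, 7.61 and 2.39 CPM, and WD levels 6.64, 10.2, 15.8, 11.5 and 24.4 CPM. WD8 and WD15 were above every control library, and WD6 was below all controls but CON13. The LFC was 0.71 (SE 0.333, 95% interval 0.012 to 1.41, edgeR adjusted p = 0.531), and 0.42 without WD15.

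TLR8 (ENSCDRG00005010375), also a sensor of single-stranded RNA, ranged from 3.21 to 8.28 CPM in control (median 4.78 CPM) and from 3.72 to 13.3 CPM in WD (median 7.59 CPM). WD8 and WD15 lay above the controls and the other WD libraries lay among them. The LFC was 0.54 (SE 0.387, 95% interval -0.27 to 1.36, edgeR adjusted p = 0.724), and 0.23 without WD15.

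TLR3 (ENSCDRG00005012086), which binds double-stranded RNA, ranged from 1.20 to 12.3 CPM in control (median 8.75 CPM) and from 4.75 to 21.3 CPM in WD (median 8.38 CPM). The medians were thus close, and the WD mean of 11.0 CPM was set by WD8 and WD15. The LFC was 0.40 (SE 0.377, 95% interval -0.40 to 1.19, edgeR adjusted p = 0.812), and 0.046 without WD15.

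TLR9 (ENSCDRG00005015908), the sensor of unmethylated CpG DNA, did not pass the filter on low counts and was not tested in this fit. Its levels were 0.459 to 3.59 CPM in control and 0.383 to 2.37 CPM in WD. The highest value in each group was that of its shallowest library, CON13 on 3 counts and WD6 on 5 counts. Without the filter its LFC was -0.15 with an SE of 0.866 (edgeR adjusted p = 0.977), and with DESeq2 it was -0.14 with an SE of 0.745 (adjusted p = 0.973).

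The upper end of the 95% interval was above an LFC of 1, a 2-fold difference, for every tested member. The share of all genes tested with a larger estimate was 1.14% for TLR6, 1.28% for TLR4, 1.29% for TLR10, 2.81% for TLR5, 2.99% for TLR7, 6.29% for TLR8, 12.2% for TLR3 and 16.5% for TLR1, although low counts widen the spread of such estimates. The median LFC was 0.92 over the 5 surface receptors and 0.54 over the 3 endosomal receptors that were tested, and the difference between the classes was not tested.

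**Figure D2:**
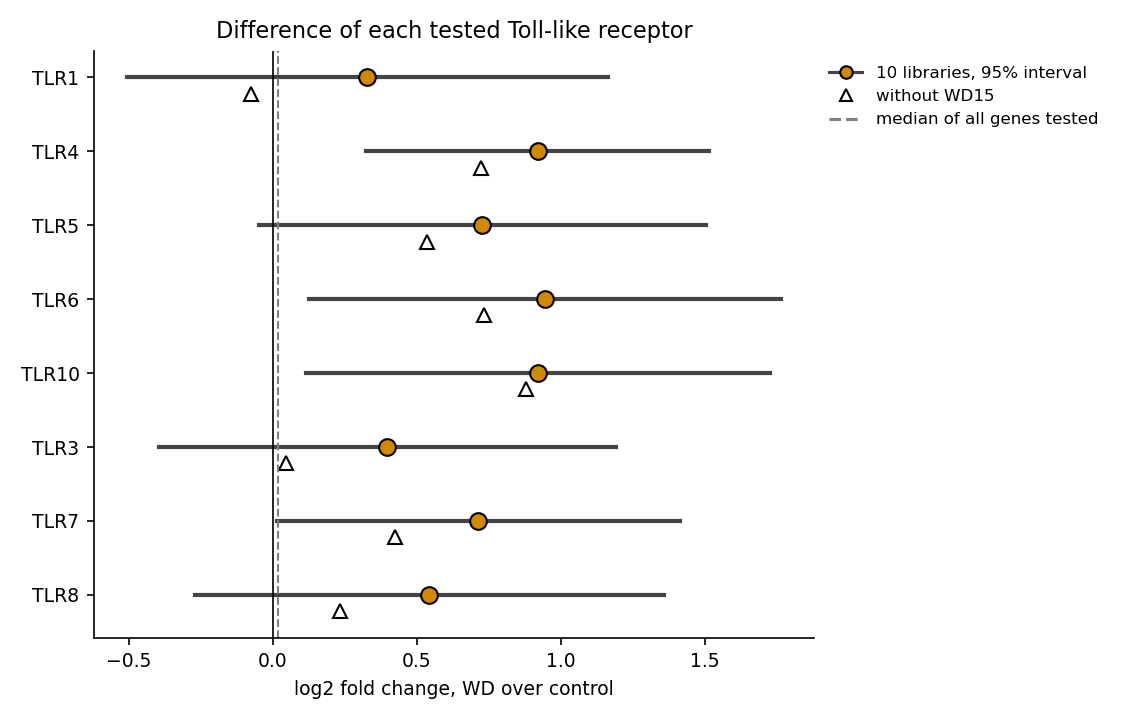
LFC of WD over control (x axis) for the 8 tested Toll-like receptors (y axis), with dots and lines for the estimate and its 95% interval from all 10 libraries and triangles for the estimate without WD15. All 8 dots lie above 0, and without WD15 every triangle lies to the left of its dot, with TLR1 at -0.077.

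One library weighed on most members. WD15 was the highest library for 7 of the 9 members, and it was the highest for 11.5% of all genes tested. Leaving it out brought the median LFC of the 8 members from 0.72 to 0.48, with 7 of 8 still above 0 and 1 unadjusted p under 0.05 in place of 4. With RNA integrity as a covariate the median was 0.44, all 8 estimates stayed above 0 and 1 unadjusted p was under 0.05. The estimates that moved most were TLR1 at 0.032, TLR3 at 0.12, TLR8 at 0.12 and TLR5 at 0.41, while TLR4 was at 0.73, TLR10 at 0.71, TLR6 at 0.68 and TLR7 at 0.47. WD15, and WD8, which came next to it for TLR3, TLR4, TLR6, TLR7 and TLR8, had the lowest and next lowest RNA integrity, so these camels and their RNA quality cannot be told apart.

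Genes of the TLR pathway, called signalling genes below, were counted over lists. The lists run from co-receptors and processing proteases to induced cytokines and include the interleukin 1 receptor family. They count only genes paired with an ID in a table not selected on this comparison. Across these lists 51 of 84 genes had such an ID, 35 passed the filter, 1 was called higher in WD and 0 lower. The median LFC was 0.31, with 31 estimates above 0 and 4 below. Of all genes tested, 0.499% were called in either direction and 0.270% higher, the median was 0.017 and 51.9% of estimates were above 0. None of the 6 adaptors, MYD88 among them, and none of the 9 co-receptors and chaperones had such an ID, and they are not counted here.

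The called gene was FOS, a subunit of the AP-1 transcription factor and an immediate early gene that answers to many stimuli besides TLRs. Its levels were 14.5, 15.6, 16.4, 11.7 and 16.7 CPM in control and 39.9, 26.5, 37.6, 56.5 and 45.2 CPM in WD. All WD libraries were above all control libraries, as for 1.34% of genes tested, and WD15 was not the highest. FOS rose with an LFC of 1.48 (SE 0.217, edgeR adjusted p = 0.00313), and it was also called in all 10 fits that left out a single library. The call was lost when libraries were scaled by their totals alone (edgeR adjusted p = 0.221).

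Of the 13 transcription factors tested, the 12 other than FOS did not pass the threshold. IRF8, which governs the development of myeloid cells and was also picked by the study for an adjusted p above the threshold, had levels of 16.7 to 38.4 CPM in control and 33.4 to 113 CPM in WD, highest in WD15. Its LFC was 0.98 (SE 0.303, edgeR adjusted p = 0.229), and 0.57 without WD15. IRF5, an interferon regulatory factor that acts with MYD88, had an LFC of 0.62 (SE 0.319). At the other end were IRF3 with -0.0067, NFKB1, a subunit of NF-κB, with -0.0039 and STAT2 with 0.013.

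Cathepsins and legumain cut the endosomal receptors into their active form. Of these 5 proteases 4 were tested and none passed the threshold, with LFCs from 0.29 to 1.01 and a median of 0.52. CTSS (cathepsin S) came nearest, at 14.9 to 22.7 CPM in control and 23.7 to 53.5 CPM in WD, with no overlap between the groups. Its LFC was 1.01 (SE 0.241, edgeR adjusted p = 0.0857), and DESeq2's adjusted p was 0.0200, past the threshold. DESeq2 called 1.27% of the genes to which it gave an adjusted p. LGMN (legumain) had an LFC of 0.62 and an adjusted p of 0.336 by edgeR, CTSK 0.42 and CTSB 0.29. CTSB also had no overlap between the groups. Of all genes tested, 1.34% had all WD libraries above all control libraries, as CTSS and CTSB had.

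All 10 tested kinases and ubiquitin ligases had estimates above 0, and none passed the threshold. The median LFC was 0.41. The highest were BTK, a kinase of B cells and myeloid cells, at 0.87 (SE 0.387), IRAK4, the first kinase after MYD88, at 0.81 (SE 0.318) and RIPK1 at 0.66 (SE 0.235). The lowest were CHUK at 0.17, IKBKB at 0.13 and IRAK1 at 0.092, the former pair being the catalytic subunits of the IκB kinase complex.

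Of the inhibitors of the pathway 4 were tested and 0 called. INPP5D had an LFC of 0.55 (SE 0.273), SIGIRR 0.26, IRAK3 0.25 and ATF3, a repressor of cytokine genes, -0.76 (SE 0.581). In the interleukin 1 receptor family, which shares the signalling domain of the TLRs, 2 of the 6 genes with an ID were tested. They were IL1R1 with an LFC of 0.39 and SIGIRR, and neither was called.

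Another 5 pathway genes were paired, like CD14, only in the table held for small p, so they are selected on this outcome and were not counted. None was called by edgeR or DESeq2, and they are named after their values were seen. PIK3AP1, an adaptor, had an LFC of 0.98 (SE 0.321, edgeR adjusted p = 0.268), the ubiquitin ligase PELI1 0.56 (SE 0.247) and the chaperone HSP90B1 0.47 (SE 0.228). TRAF3, a ubiquitin ligase, had an LFC of 0.39 (SE 0.167, edgeR adjusted p = 0.478), with all WD libraries above all control libraries. IL1RAP, a subunit of the interleukin 1 receptor, had an LFC of -0.74 (SE 0.216, edgeR adjusted p = 0.204), with all WD libraries below all control libraries. Groups without overlap were found for 2.62% of genes tested.

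The cytokines and enzymes that TLR signalling induces were scarce in both groups. Of 14 with an ID, 11 did not pass the filter, TNF, IL6 and CXCL10 among them, with 28 to 109 counts each over the 10 libraries. IL1B had 3.59 to 9.37 CPM in control and 3.32 to 12.3 CPM in WD, with an LFC of 0.12 (SE 0.324, edgeR adjusted p = 0.949). IL18, a cytokine that microglia can hold as a precursor, had an LFC of 1.18 (SE 0.449, adjusted p = 0.400 by edgeR) and was highest in WD15. NOS2, the inducible nitric oxide synthase, had an LFC of -0.90 (SE 0.443, adjusted p = 0.562 by edgeR).

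**Figure D3:**
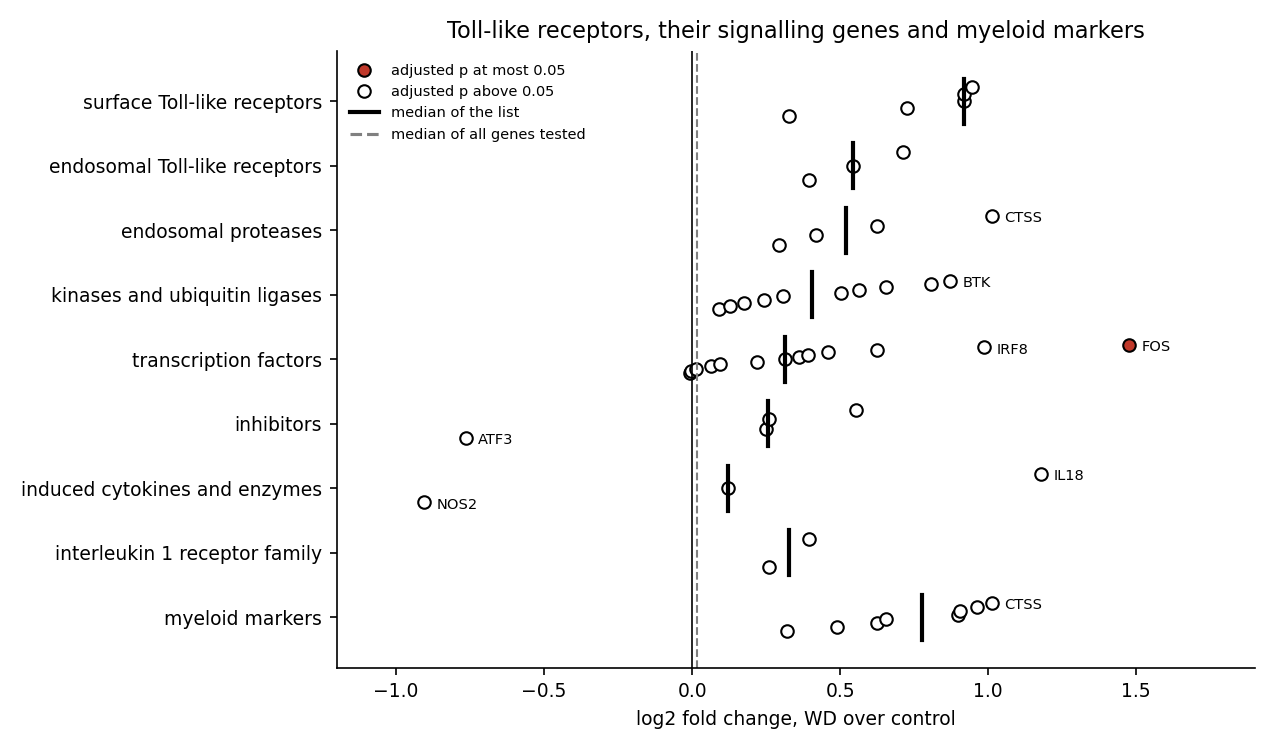
LFC of WD over control (x axis) for every tested gene of the receptor, signalling and myeloid marker lists (y axis), with a black bar at the median of each list, a dashed line at the median of all genes tested and a filled dot for the 1 called gene. FOS stands at 1.48, and the receptor lists have medians of 0.92 and 0.54.

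Markers of microglia and macrophages were measured beside the receptors. None of 8 myeloid markers paired in the table not selected on this comparison was called by edgeR and 5 had an unadjusted p under 0.05, all higher in WD. Of all genes tested, 9.31% had such a p in either direction and 4.91% with a higher level in WD. The LFCs ran from 0.32 for SALL1, a factor of microglial identity, through 0.62 for CSF1R, the receptor that keeps microglia alive, to 0.90 for ITGAM, 0.96 for ITGB2 and 1.01 for CTSS. The median was 0.78, beside 0.72 for the TLRs. Without WD15 the medians were 0.38 and 0.48, and with RNA integrity as a covariate they were 0.37 and 0.44. DESeq2 called CTSS, and edgeR with a covariate that sets the 5 shallowest libraries apart from the other 5 called CTSS (adjusted p = 0.0297) and PTPRC (adjusted p = 0.0179), the latter named after its values were seen. None of these markers was at 0 in any library, and all 8 were highest in WD15.

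A further 9 markers on the list were paired only in the table held here for small p, so they are selected on this outcome and were not counted. Their LFCs ran from 0.70 for P2RY12 to 1.63 for C1QA, and all 9 were highest in WD15. C1QA, a chain of the complement component C1q, was called (SE 0.322, edgeR adjusted p = 0.0232). The call was lost without CON3, CON5, CON13 or WD8 (edgeR adjusted p = 0.133, 0.0874, 0.0756 and 0.0672). It was also lost without CON13 and WD6 together (edgeR adjusted p = 0.0625) and with library totals (0.287). C1QC at 1.48, CD163 at 1.46 and C1QB at 1.35 did not pass the threshold with edgeR, though each passed it in at least 1 alternative fit. With DESeq2, C1QA (adjusted p = 0.000399), C1QC (0.00431) and C1QB (0.00532) passed it and CD163 (0.131) did not, where DESeq2 called 1.27% of genes. These genes are named after their values were seen.

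The summed level of the 8 myeloid markers was 425, 296, 280, 272 and 304 CPM in control and 460, 338, 508, 329 and 913 CPM in WD. The summed level of the 9 TLRs was 72.6, 51.3, 62.1, 67.2 and 64.6 CPM in control and 71.7, 70.8, 121, 78.5 and 168 CPM in WD. For both sums WD15 and then WD8, the libraries of lowest RNA integrity, were the highest. The ratio of the WD mean to the control mean was 1.60 for the TLRs and 1.62 for the markers. As a share of the marker sum, the TLR sum was 20.5 ± 3.26% in control and 20.5 ± 3.57% in WD (SD, n = 5 each), with ranges of 17.1% to 24.7% and 15.6% to 23.8%. These values depend on the markers summed. With the 9 markers selected on the outcome added, the sum of 17 was 659 ± 144 CPM in control and 1406 ± 782 CPM in WD (SD, n = 5 each), a ratio of 2.13. The TLR sum was then 9.85 ± 1.63% of it in control and 7.81 ± 2.02% in WD, with overlapping ranges. This sum was added after the data were seen. The part of myeloid transcripts in the difference between the groups was not tested.

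**Figure D4:**
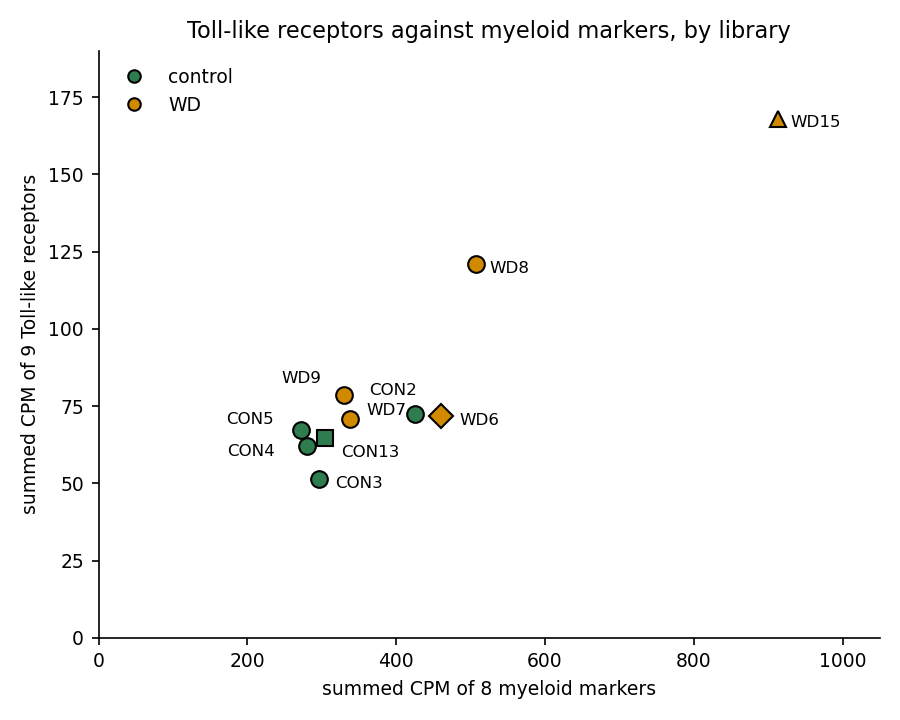
Summed level of 9 Toll-like receptors (y axis, CPM after TMM) against the summed level of 8 myeloid markers (x axis, CPM after TMM) in the 5 control and 5 WD libraries, each point a library. WD15 at 913 and 168 CPM and WD8 at 508 and 121 CPM lie apart from the other 8 libraries.

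The 8 tested TLRs were each set against the summed marker level over the 10 libraries, which gave 8 relations. Pearson's r of the log2 level ran from 0.42 for TLR1 to 0.78 for TLR8. TLR8 was past the threshold after Benjamini-Hochberg adjustment (r = 0.78, permutation p = 0.00442, adjusted p = 0.0354), though its Spearman rho of 0.62 was not (permutation p = 0.0607, adjusted p = 0.128). The call for r was lost when 1 library was left out, CON4, WD6, WD8 or WD15 (adjusted permutation p = 0.0807, 0.0515, 0.117 and 0.282). For TLR5 r was 0.65 (permutation p = 0.0126, adjusted p = 0.0505) and for TLR4 it was 0.70 (permutation p = 0.0237, adjusted p = 0.0632). No rho was past the threshold, and the highest was 0.77 for TLR10 (permutation p = 0.0132, adjusted p = 0.105).

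Except for TLR10, whose r over all libraries was 0.45, these relations fell when the libraries with the highest marker level were left out. Without WD8 and WD15, the 2 farthest from the median, r was 0.40 for TLR8, 0.33 for TLR5, 0.20 for TLR4 and TLR7, 0.32 for TLR6, 0.52 for TLR10, -0.077 for TLR3 and -0.59 for TLR1. After the group means were taken out, r over the 10 libraries was 0.74 for TLR8 and 0.21 to 0.57 for the other members.

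The members also differed in how they varied among themselves. Of the 28 pairs of tested members, 22 had a positive correlation of their deviations from the group means (log2 level, 10 libraries), with a median r of 0.25. These points share library, depth and normalization, so the values are a description. The median was 0.063 without WD15 and 0.50 without CON13, the library in which 3 members had at most 2 counts. Over all 10 libraries TLR3 and TLR7 varied most alike (r = 0.89), followed by TLR1 and TLR4 (r = 0.81). Without CON13 the order changed, with r = 0.91 for TLR4 and TLR7, 0.89 for TLR1 and TLR7, 0.83 for TLR1 and TLR3, 0.79 for TLR3 and TLR7, and 0.78 for TLR1 and TLR4. Of the pairs of neighbouring genes, TLR7 and TLR8 had an r of 0.20 and TLR1 and TLR6 one of 0.56, while TLR1 and TLR10 had the lowest of the 28 (r = -0.35). Without CON13, in which TLR10 had no count, the r of TLR1 and TLR10 was -0.056 and that of TLR3 and TLR10 was the lowest, at -0.16 in place of 0.67. For TLR7 and TLR8 r was -0.16 without WD15 and 0.33 without CON13, and for TLR1 and TLR6 it was 0.47 and 0.55.

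Each member was also compared with 3359 other genes that have a symbol, by the same measure over the 10 libraries. The genes most like TLR1 were TEK (r = 0.96), FBN1 (0.93) and PTPRJ (0.93), and those most like TLR4 were STOM (0.93), SPTLC2 (0.90) and TRPS1 (0.89). For TLR5 they were ESAM (0.92), NRBP2 (0.90) and SLC17A8 (0.90), and for TLR6 ZNF143 (0.91), LPAR6 (0.91) and IL6R (0.90). TLR8 was followed most closely by FES (0.95), LCP2 (0.93) and PLCB3 (0.92).

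SH2D1B was near both TLR7 (0.97) and TLR3 (0.93). The others were KDSR (0.96) and PLD1 (0.95) for TLR7, and INPP5A (0.95) and ATOH8 (0.94) for TLR3. TLR10 was most like VSIG4 (0.97), ZNF577 (0.96) and SLC16A4 (0.95), but these had 0 or 1 count in CON13 as TLR10 had none, and without CON13 the r were 0.81, 0.72 and 0.71. SH2D1B and ATOH8, near TLR3 and TLR7, and LPAR6, near TLR6, also had 1 count in CON13. All these genes were picked as the highest of 3359 by this r, so the values describe these libraries and support nothing further.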

How the data were processed

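Per the methods of the study, reads were merged and trimmed with BBDuk, aligned to Camdro2 with STAR and counted per gene with FeatureCounts. The authors deposited these counts, whole numbers without normalization. They also deposited a signal table of counts divided by 1 size factor per library, used here only to read those factors.

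WD and control were compared with edgeR 4.0.16 (R 4.3.3; TMM, filterByExpr by group, robust quasi-likelihood F test) and Benjamini-Hochberg adjustment over 14432 genes, at a threshold of 0.05. The SE is the size of the LFC divided by the square root of F. DESeq2 1.42.0 was an alternative, and RNA integrity and fragment length from the study's supplement were covariates in others. The edgeR step was tested on simulated data. Log2 levels in correlations use a prior count of 0.5, with two-sided permutation tests of 100000 resamples. The floor of 3 counts covers counting error only.

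Symbols came from the supplementary tables (4316 IDs). Lists count only genes paired in the table of gene classes, since the table of test results is held here for small p only. IRF7 had more than 1 ID and was left out. Named genes are all members, called list genes, the 3 largest and 3 smallest LFCs of each list, CD14 and the 3 most alike genes per member. Other genes are named where the text says that their values had been seen. Of the results under this rule, 1 is not reported here. Members and lists were chosen with earlier results of these data known. A planned ordering of members by level per length was not run, for want of transcript lengths.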

Additional observations from a re-analysis of the deposited data

Results flagged for a closer look

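In 26 groups of 5 libraries (control and WD, for each of 9 members and 4 sums), 2 held a library far from the others by Dixon's criterion, and chance flags about 1 in 20 groups. TLR9 in control stood at 3.59 CPM in CON13, where the next highest library had 1.28 CPM. That value is 3 counts in the shallowest library. The summed level of myeloid markers in control stood at 425 CPM in CON2, where the next highest control had 304 CPM.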

How the results depend on the processing

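No TLR was called under any of the 21 alternatives. With at least 10 counts in every library only TLR4 was left to test. With 1 library left out, the LFC of TLR1 ran from -0.077 (without WD15, reversed) to 0.55 (without WD6). Over the other alternatives it ran from 0.032 to 0.66, and the other LFCs kept their sign. Genes called numbered 72, against 209 with DESeq2, 10 with library totals, 224 with depth group as a covariate and 40 (without CON3) to 102 (without WD6) with 1 library left out. Signalling genes called numbered 1, against 2 with DESeq2 (CTSS and FOS), 2 with depth group as a covariate, 0 with library totals (FOS adjusted p = 0.221, edgeR) and 1 to 1 with 1 library left out. Library totals moved the median LFC of all genes to 0.16, and that of the TLRs to 0.83. With 1 library left out, the summed TLR log2 ratio of 0.68 ran from 0.43 (without WD15) to 0.79 (without WD7). It was 0.86 with library totals. The cause of these moves was not tested.

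Relations to the marker sum past the adjusted threshold in place of above it had r = 0.74, 0.83, 0.83, 0.72 and 0.82 (TLR3, TLR4, TLR5, TLR6, TLR7) with library totals, and 0.76, 0.82, 0.75, 0.82 and 0.86 with CPM in place of log2 CPM. Without the 2 libraries with the fewest counts they were 0.89 (TLR1), 0.86 (TLR3), 0.74 (TLR4), 0.81 (TLR5) and 0.92 (TLR7). With 1 library left out, r ran from -0.19 to 0.72 for TLR1, 0.19 to 0.65 for TLR3, 0.50 to 0.76 for TLR4, 0.50 to 0.74 for TLR5, 0.52 to 0.80 for TLR6, 0.45 to 0.81 for TLR7, 0.60 to 0.89 for TLR8 and 0.43 to 0.62 for TLR10. The lowest were without WD15, except TLR10 (without CON3). TLR8 lost its call without CON4, WD6, WD8 or WD15, while a call was gained by TLR5 without CON2, CON5 or CON13, by TLR4 without CON3 or CON13, by TLR6 without CON3 and by TLR7 without CON13.

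The fits without CON13 and WD6 together were added after the data were seen. No paired analysis was possible because the labels give the groups no shared replicate numbers. The members stand on 51 to 1177 counts over 10 libraries, and the biological coefficient of variation was 0.285.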

Other observations

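None of the tested markers of the oligodendrocyte lineage, lymphocytes, neutrophils and endothelium was called. At an unadjusted p under 0.05 (edgeR) there were 2 of the 5 endothelial markers, both higher in WD. The 1 tested neutrophil marker was also past this level, lower in WD, and no marker of the other lists was. Of all genes tested, 9.31% were past it and 4.91% were past it and higher in WD. The 4 markers of the oligodendrocyte lineage had LFCs of -0.31 (OLIG1), -0.12 (PDGFRA), -0.079 (SOX10) and -0.063 (OLIG2), and the 3 tested lymphocyte markers -0.30 (IL7R), -0.22 (GZMB) and -0.20 (LCK). CSF3R, the 1 neutrophil marker that passed the filter, had an LFC of -1.16 (SE 0.548, edgeR adjusted p = 0.531). The sums of these lists were highest in CON2 for the oligodendrocyte lineage and in CON13 for the other two.

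Of the 5 endothelial markers 4 were highest in WD15. FLT1 had an LFC of 0.62, VWF of 0.17 and TIE1 of 0.15. KDR, a receptor for VEGF on endothelial cells, had the largest LFC, at 0.64 (SE 0.247, edgeR adjusted p = 0.402). TEK, the gene that varied most like TLR1, had an LFC of -0.062.

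Of the magnocellular markers, PDYN (prodynorphin) and PCSK1 (a prohormone convertase) were called, with LFCs of 1.93 (SE 0.221, edgeR adjusted p = 0.000302) and 2.02 (SE 0.223, edgeR adjusted p = 0.000249), and OTP and SIM1 were not, at -0.58 and -0.044. The 3 astrocyte markers were paired only in the table held for small p, and edgeR called none. DESeq2 called ALDOC (aldolase C; adjusted p = 0.0386), as did edgeR with RNA integrity as a covariate (adjusted p = 0.0230), and it is named after its values were seen. With edgeR its LFC was 0.59 (SE 0.179, adjusted p = 0.229), and all WD libraries were above all control libraries, as for 1.34% of genes tested. The sum of the 3 markers was 298 to 416 CPM in control and 475 to 624 CPM in WD, with a ratio of the means of 1.49.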
